A study of Homo sapiens with 4 samples.

Results

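CHD proteins (chromodomain helicase DNA-binding proteins) are enzymes that use ATP to slide, space or evict nucleosomes, and their transcripts were compared between AICAR-treated and vehicle-treated NALM6 cells. The 9 members CHD1, CHD2, CHD3, CHD4, CHD6, CHD7, CHD8, CHD9 and CHD1L were taken by gene name from the 20665 gene rows of the deposited table. All 9 were among the 13626 rows that passed a filter on low counts. The list was drawn up with earlier results known, and so was selected on expected counts and FPKM in AICAR against vehicle libraries; those values are a description, and no p-value is given for the level of a member. CHD5, a paralogue best known from the nervous system and testis, is not a member; its row held 14 and 13 expected counts in AICAR libraries against 6 and 19 in vehicle libraries.

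The family shares a SNF2-type ATPase motor and, apart from CHD1L, paired chromodomains that bind histone tails or DNA. Subfamily I holds CHD1 and CHD2, which space nucleosomes over transcribed genes. Subfamily II holds CHD3 and CHD4, the motors of the NuRD complex, which joins nucleosome remodelling to histone deacetylation; CHD4 is known in B cell precursors as a partner of the factors that set B lineage gene expression. Subfamily III holds CHD6, CHD7, CHD8 and CHD9, large proteins linked to enhancers and promoters, and CHD1L, also called ALC1, replaces the chromodomains with a macrodomain that binds poly(ADP-ribose) at sites of DNA damage.

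NALM6 is an established human B cell precursor leukaemia line. The AICAR libraries came from cells kept for 24 h without glucose and then exposed for 45 min to AICAR at 15 mM. Inside cells this nucleoside is phosphorylated to an analogue of AMP and switches on AMP-activated protein kinase. The vehicle libraries came from cells given DMSO for 45 min, and the labels do not say that these cells had been without glucose, so AICAR and glucose deprivation cannot be told apart. Each group had 2 libraries, and nothing in the labels says that they were separate cultures, so the spread between them may be technical. The SDs below measure that spread. The SEs come from fits that also pool information on spread over all genes tested.

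The 4 libraries held 32318376 and 34458010 expected counts with AICAR and 33919915 and 36769116 with vehicle. The summed level of 9 B cell precursor markers (CD79A, PAX5 and others) was 3720 to 3806 CPM with AICAR and 3554 to 3607 CPM with vehicle. The 3 T cell markers that had a row summed to under 5 CPM in each library, and the 6 myeloid or erythroid ones that had a row likewise. CPM are counts relative to the library total, scaled with TMM factors, FPKM are the authors' values per length and depth, and log2 fold changes are AICAR over vehicle. Each is relative to the other transcripts of its library, and in RNA of a whole culture fewer expressing cells and less RNA per cell cannot be told apart.

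Of the 9 members, 3 were past the threshold of edgeR's quasi-likelihood test (adjusted p of 0.05 over all genes tested) with higher levels after AICAR, 3 with lower levels, and 3 were not past it. Over all genes tested, 39.1% were past that threshold, 19.4% higher and 19.7% lower (2645 and 2683 genes, or 1390 and 3135 with libraries scaled by total counts alone). CHD3, CHD4 and CHD1L were the higher members and CHD1, CHD2 and CHD9 the lower ones. The members' median log2 fold change was 0.07, against -0.0022 over all genes tested. The CPM of both groups did not overlap for 7 of the 9 members, as for 69.2% of all genes tested. Because the members were proposed on this comparison, nothing is read from these shares. The same 6 members were past the threshold under 13 other count-based settings, and the authors' deposited table also calls 3 higher and 3 lower.

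**Figure D1:**
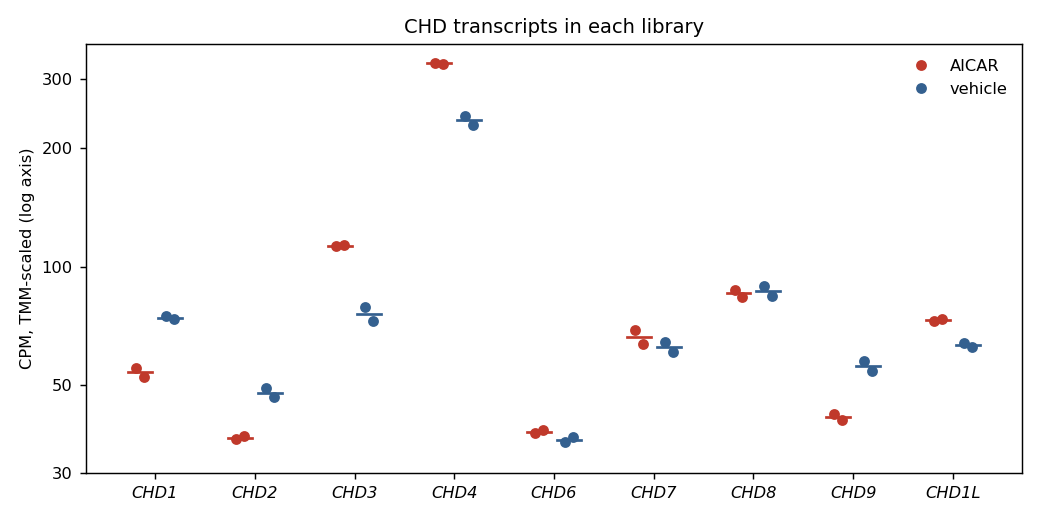
CPM (TMM-scaled, log axis) of each CHD gene in the 2 AICAR libraries (red) and the 2 vehicle libraries (blue); points are libraries and bars are group means. CHD3 and CHD4 lie higher with AICAR, CHD1, CHD2 and CHD9 lie lower, and CHD7 and CHD8 overlap between the groups.

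CHD4, the main NuRD motor in most cell types, was the most abundant member per length in all 4 libraries. It had 329 and 328 CPM in AICAR libraries, against 242 and 229 CPM in vehicle libraries. Its level was 1.40-fold higher with AICAR (log2 fold change 0.48 ± 0.0401 SE). Both AICAR libraries lay above both vehicle libraries, and the 2 AICAR libraries were nearly alike.

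CHD3, the alternative NuRD motor and a close paralogue of CHD4, had 113 and 114 CPM in AICAR libraries, against 79.1 and 72.8 CPM in vehicle libraries. AICAR and vehicle libraries did not overlap, and CHD3 had the highest log2 fold change of the family (0.58 ± 0.0451 SE, 1.49-fold). The summed CPM of subfamily II were 442 and 441 with AICAR and 321 and 302 with vehicle, a log2 difference of 0.50. CHD3 counts stood at 0.343 and 0.346 of CHD4 counts in AICAR libraries and at 0.327 and 0.318 in vehicle libraries, so the balance of the paralogues moved little beside the change of their sum. Counts of both were whole numbers in every library, as they are where no read is divided between rows.

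The RefSeq promoter windows of these 2 higher genes (250 bases before to 50 after the listed start, GRCh38.p14, 5′ to 3′ on the gene's strand) are shown because both genes moved the same way. They are chr17:7888539-7888838 (+) for CHD3 and chr12:6606402-6606701 (-) for CHD4, and capitals mark a GC box.
CHD3: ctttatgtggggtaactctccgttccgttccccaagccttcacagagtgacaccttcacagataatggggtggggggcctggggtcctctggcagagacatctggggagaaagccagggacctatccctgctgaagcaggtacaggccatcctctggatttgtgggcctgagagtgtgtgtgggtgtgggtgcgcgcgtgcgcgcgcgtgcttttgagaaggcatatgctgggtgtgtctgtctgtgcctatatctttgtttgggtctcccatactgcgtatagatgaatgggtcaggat
CHD4: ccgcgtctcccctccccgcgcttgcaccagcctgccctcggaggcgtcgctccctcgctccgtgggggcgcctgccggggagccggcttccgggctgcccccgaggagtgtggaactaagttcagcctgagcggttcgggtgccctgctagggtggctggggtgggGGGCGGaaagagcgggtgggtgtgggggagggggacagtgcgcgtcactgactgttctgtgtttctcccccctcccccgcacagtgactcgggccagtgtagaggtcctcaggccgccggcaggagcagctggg
The windows differ in composition: the CHD3 window had 56.0% GC and 10 CG dinucleotides, and the CHD4 window had 71.7% GC and 24. The median over the 35116 RefSeq windows was 58.7% GC and 14 CG dinucleotides.

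CHD1, which binds histone H3 methylated at the mark of active promoters and assembles evenly spaced nucleosomes, was lower after AICAR. It had 55.5 and 52.4 CPM in AICAR libraries, against 75.1 and 73.7 CPM in vehicle libraries. Both AICAR libraries lay below both vehicle libraries, and the log2 fold change was -0.46 ± 0.0446 SE, a level 1.38-fold lower with AICAR and the lowest fold change of the family. In FPKM the difference was larger, with 11.2 and 9.97 in AICAR libraries against 17.2 and 16.8 in vehicle libraries (-0.64 on the log2(FPKM + 1) scale).

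CHD2, which deposits the histone variant H3.3 at active genes and whose loss causes a childhood epilepsy, had 36.6 and 37.1 CPM in AICAR libraries, against 49.2 and 46.7 CPM in vehicle libraries. The groups did not overlap, and the log2 fold change was -0.38 ± 0.0496 SE, a level 1.30-fold lower with AICAR. The FPKM of CHD2 did overlap, with 16.7 and 14.8 in AICAR libraries against 18.04 and 14.2 in vehicle libraries. On the log2(FPKM + 1) scale its difference was -0.025, and limma did not call it.

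The RefSeq windows of this pair, which moved down together, have the same build and span, at chr5:98928958-98929257 (-) for CHD1 and chr15:92900074-92900373 (+) for CHD2. Capitals mark GC boxes and a CCAAT box, and a run of capitals can hold a pair of overlapping GC boxes.
CHD1: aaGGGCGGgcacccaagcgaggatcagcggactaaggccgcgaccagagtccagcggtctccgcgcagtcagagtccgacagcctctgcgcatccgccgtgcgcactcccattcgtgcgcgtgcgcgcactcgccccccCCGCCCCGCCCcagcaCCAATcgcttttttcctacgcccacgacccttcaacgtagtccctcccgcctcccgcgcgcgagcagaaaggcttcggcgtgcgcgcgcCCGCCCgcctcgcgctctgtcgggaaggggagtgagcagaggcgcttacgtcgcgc
CHD2: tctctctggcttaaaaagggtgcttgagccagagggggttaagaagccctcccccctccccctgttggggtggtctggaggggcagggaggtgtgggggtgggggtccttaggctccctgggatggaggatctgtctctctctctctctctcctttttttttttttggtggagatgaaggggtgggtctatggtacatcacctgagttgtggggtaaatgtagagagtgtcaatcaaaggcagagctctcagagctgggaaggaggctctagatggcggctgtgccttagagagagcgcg
The CHD1 window had 70.7% GC and 44 CG dinucleotides, with 4 GC boxes and 1 CCAAT box. The CHD2 window had 56.0% GC and 3 CG dinucleotides, and held neither box.
The CHD2 and CHD3 windows had the same GC content, and the part of window composition in the levels was not tested.

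Windows were listed for 7 members, namely CHD1, CHD2, CHD3, CHD4, CHD8, CHD9 and CHD1L. On both strands, a GC box (GGGCGG, bound by Sp1) was in a window of 5 of the 7, and in 45.0% of all windows. A CCAAT box (CCAAT, bound by NF-Y) was in windows of CHD1, CHD8 and CHD9, and in 34.6% of all windows. The E-box of MYC (CACGTG) was in a window of CHD9, and in 7.26% of all windows. Neither the CRE (TGACGTCA, 1.85% of all windows) nor the ETS motif (CCGGAAGT, 4.14%) was in a window of the 7. CHD9 and CHD1L have more than 1 listed window, which gives them more bases to match, and a match is a description of letters, not of binding.

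Reads over CHD2 could not be assigned to it alone. CHD2 was the member with fractional counts (1168 and 1241 in AICAR libraries, against 1737 and 1718 in vehicle libraries), while the other 8 were whole within 0.01 in every library. The neighbouring long non-coding RNA gene LINC01578 (ENSG00000272888), upstream on the same strand, also had fractional counts, and the sum of both rows was whole in all 4 libraries: 1678 and 1753 with AICAR, against 2495 and 2563 with vehicle. In mice the corresponding RNA, Chaserr, limits Chd2 expression.

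LINC01578 had 16.0 and 15.3 CPM in AICAR libraries, against 21.5 and 23.0 CPM in vehicle libraries. Its groups did not overlap, and its level fell with AICAR (log2 fold change -0.51 ± 0.0684 SE, adjusted p = 0.000173 by edgeR's quasi-likelihood test). It took 30.4% and 29.2% of the summed counts with AICAR, and 30.4% and 33.0% with vehicle. The sum, which does not depend on how the reads were divided, was 52.5 and 52.4 CPM with AICAR and 70.7 and 69.7 CPM with vehicle, a log2 difference of -0.42.

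CHD9, a subfamily III member first described as a coactivator of nuclear receptors, was the lower member outside subfamily I. It had 42.3 and 41.0 CPM in AICAR libraries, against 57.7 and 54.5 CPM in vehicle libraries. The groups did not overlap, and the log2 fold change was -0.43 ± 0.0490 SE, a level 1.35-fold lower with AICAR. CHD9 and CHD1 kept nearly the same count ratio, 0.763 and 0.782 with AICAR against 0.768 and 0.740 with vehicle.

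The other subfamily III members were not past the threshold. CHD8, a regulator of Wnt target genes and a leading autism risk gene, had 87.4 and 84.0 CPM in AICAR libraries, against 89.3 and 84.2 CPM in vehicle libraries (log2 fold change -0.018 ± 0.0436 SE). CHD7, the enhancer-binding member mutated in CHARGE syndrome, had 69.1 and 63.7 CPM in AICAR libraries, against 64.4 and 60.9 CPM in vehicle libraries (0.08 ± 0.0505 SE). CHD8 and CHD7 overlapped between the groups.

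CHD6, which is known for a role in the response to oxidative stress, had 37.8 and 38.6 CPM in AICAR libraries, against 35.9 and 36.9 CPM in vehicle libraries. Its groups did not overlap, but the difference was not past the threshold (0.07 ± 0.0499 SE). With CHD9, the subfamily summed to 237 and 227 CPM with AICAR and 247 and 237 CPM with vehicle.

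CHD1L, the remodeller that PARP activity recruits to damaged DNA, had 72.9 and 73.7 CPM in AICAR libraries, against 64.1 and 62.8 CPM in vehicle libraries. The groups did not overlap, and the level was 1.16-fold higher with AICAR (log2 fold change 0.21 ± 0.0406 SE). On the log2(FPKM + 1) scale its difference was 0.14, and limma did not call it.

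**Figure D2:**
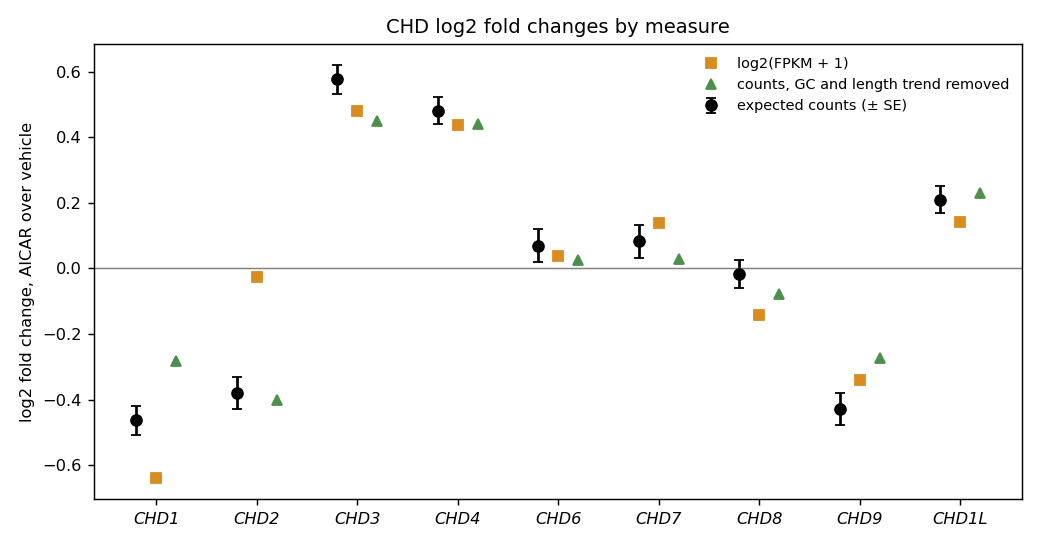
Log2 fold change (AICAR over vehicle) of each CHD gene from expected counts (black, ± SE), from log2(FPKM + 1) (orange) and from counts after removal of a trend with transcript GC content and length (green). CHD2 is near 0 in FPKM (-0.025) against -0.38 in counts, while CHD3 and CHD4 stay between 0.44 and 0.58 on all 3 measures.

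Ratios of counts between members need no scaling of the libraries, and they set the higher genes against the lower ones directly. CHD3 over CHD1 was 2.03 and 2.16 in AICAR libraries, against 1.05 and 0.988 in vehicle libraries, a log2 difference of 1.04. CHD4 over CHD1 was 5.93 and 6.25 in AICAR libraries, against 3.22 and 3.11 in vehicle libraries. CHD3 over CHD9 was 2.66 and 2.77 with AICAR, against 1.37 and 1.34 with vehicle. These ratios pair members picked as higher and lower, so their separation between the groups was fixed by that choice. CHD1 over CHD2, both lower, was 1.52 and 1.41 with AICAR, against 1.53 and 1.58 with vehicle, which did not overlap either but differed far less.

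Per length, CHD4 supplied 39.5% and 39.1% of the summed FPKM of the 9 members in AICAR libraries, against 31.5% and 32.4% in vehicle libraries. Subfamily II as a whole supplied 49.0% and 49.9% with AICAR, against 39.7% and 39.8% with vehicle. The share of CHD1 was 5.32% and 4.998% with AICAR, against 9.03% and 9.34% with vehicle. The summed level of all 9 members was 838 ± 8.15 CPM with AICAR and 739 ± 24.6 CPM with vehicle (SD, n = 2 each). CHD4 alone had a mean of 329 CPM with AICAR against 235 with vehicle, and CHD1L had 73.3 against 63.4. The mean sums of subfamilies I and III were lower, at 90.8 and 232 CPM with AICAR against 122 and 242 with vehicle. The total and its make-up thus both differed, but the total did not rise in every part of the family.

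In mean FPKM, the order with AICAR was CHD4 (80.4), CHD1L (25.7), CHD3 (20.7), CHD2 (15.7), CHD8 (14.9), CHD7 (13.3), CHD9 (13.0), CHD1 (10.6) and CHD6 (10.3). CHD4, CHD1L and CHD3 were separate from their neighbours in that order; CHD2 through CHD9 overlapped from neighbour to neighbour, and CHD1 overlapped CHD6. With vehicle the order was CHD4 (59.1), CHD1L (23.1), CHD1 (17.0), CHD9 (16.7), CHD8 (16.4), CHD2 (16.1), CHD3 (14.6), CHD7 (12.2) and CHD6 (10.00). CHD4 and CHD1L were again separate, and every neighbour from CHD1 to CHD6 overlapped. CHD1 ranked below CHD9 and CHD3 with AICAR and above both with vehicle.

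The ratio of the deposited counts to the deposited FPKM gives the transcript length that the authors' quantification assigned to each gene, a value that follows the estimated isoform mix and not the level. CHD1 had an implied length of 4913 and 5103 bases in AICAR libraries, against 4541 and 4388 bases in vehicle libraries. CHD2 had 2166 and 2435 bases in AICAR libraries, against 2839 and 3293 bases in vehicle libraries. The log2 difference was 0.17 ± 0.0326 SE for CHD1 and -0.41 ± 0.118 SE for CHD2, and neither was called.

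No member was called for implied length, and neither was any of the 10004 genes with at least 100 counts in every library (limma, 0% at an adjusted p of 0.05). At an unadjusted p under 0.05 stood 1247 of those genes (12.5%), CHD1 and CHD2 among them. Of the other 7 members, CHD4 for example had 3927 and 4080 bases in AICAR libraries against 4193 and 3940 in vehicle libraries. With 75-base single reads the isoform mix is an estimate, and no isoform table was analysed here.

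**Figure D3:**
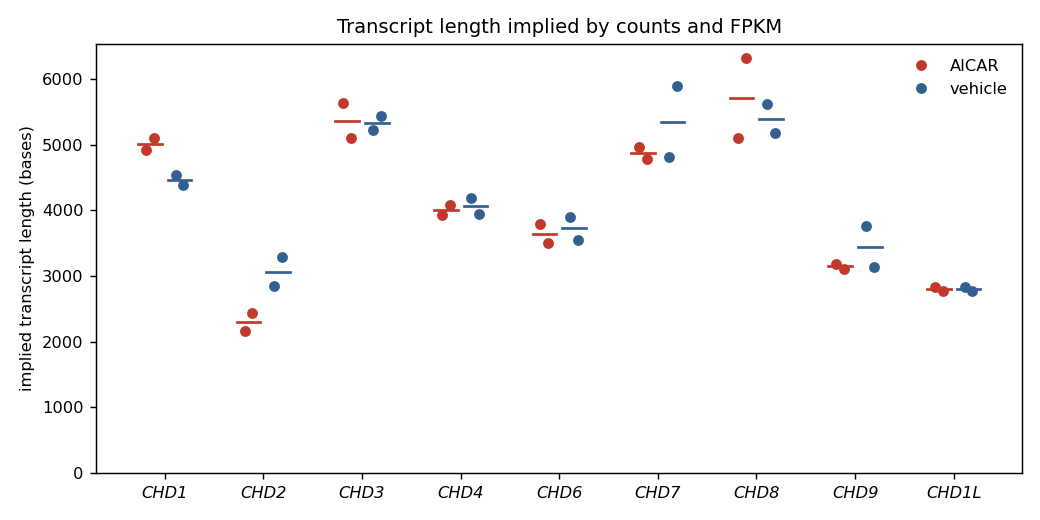
Transcript length in bases implied by counts and FPKM for each CHD gene in the 2 AICAR libraries (red) and the 2 vehicle libraries (blue); points are libraries and bars are group means. CHD1 has 4913 and 5103 bases with AICAR against 4541 and 4388 with vehicle, and no member was called for implied length.

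Fold changes of all genes moved with the base composition of their transcripts, taken from GENCODE 29. Over the 11085 tested protein-coding genes with an annotation, the median log2 fold change was -0.16 for transcripts of up to 40% GC and 0.13 for those between 55% and 60%. In the first class, 2.63% of genes were called higher and 44.3% lower; in the second, 36.4% were higher and 10.8% lower. CHD1 (38.1% GC) and CHD9 (38.7%) belong to the first class and CHD3 (56.1%) to the second, and each had the sign of its class median. By transcript length, CHD3 and CHD4 fell in a class of 6000 to 8000 bases with a median of -0.055, opposite to their sign. CHD1L fell in a class with a median of -0.0045, and the other members were above 8000 bases, with a median of -0.017.

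CHD2 (46.8% GC), CHD6 (47.2%), CHD1L (47.3%), CHD7 (47.5%) and CHD8 (49.3%) fell in a class with a median of 0.0094. Of those 5 members, CHD2 was lower, CHD1L higher and the others not called. CHD4 (51.5% GC) fell in a class with a median of 0.07. After a smooth trend on GC content and length was subtracted, a step chosen after the data had been seen, the log2 fold changes were 0.45 for CHD3, 0.44 for CHD4, 0.23 for CHD1L, -0.28 for CHD1, -0.27 for CHD9 and -0.40 for CHD2. CHD1 and CHD9 thus lost about as much as the median of their GC class, CHD4 changed little, and CHD2 was slightly further from 0. The part of GC content and length in the levels was not tested.

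**Figure D4:**
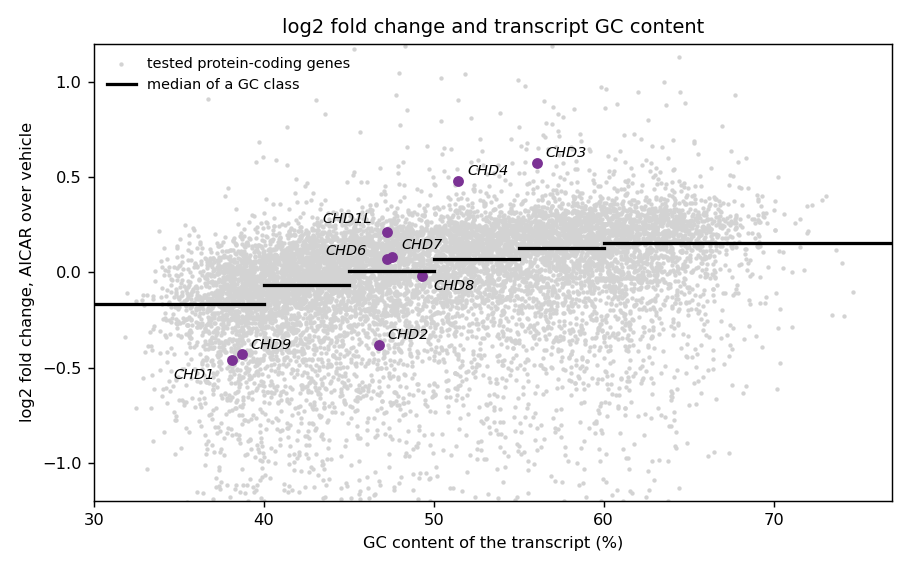
Log2 fold change (AICAR over vehicle) against transcript GC content for 11085 tested protein-coding genes (grey; 278 lie beyond the plotted range of 1.2 in either direction), with the median of each GC class (black bars) and the 9 CHD genes (purple). CHD1 and CHD9 lie at the low-GC end below their class median of -0.16, and CHD3 and CHD4 lie above theirs.

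AU-rich elements built on ATTTA in the 3' untranslated region are known to bind proteins that shorten or extend the life of an mRNA. Their number differed between members, as did the length of the region. CHD9 had 14 ATTTA matches, CHD6 had 11, CHD1 had 10, CHD7 had 8, CHD2 had 4, CHD8 had 2 and CHD1L had 1. CHD3 and CHD4 had 0, with regions of 1175 and 468 bases. Over the 11085 genes the median was 1 match, 33.6% had none and 11.7% had at least 10.

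Windows of 30 bases show the matches (in capitals, DNA letters, 5′ to 3′ on the gene's strand) in the 3 members with at least 10, of which CHD1 and CHD9 were lower after AICAR and CHD6 was not called.
CHD1: ccaacagaagagaaaatatttttatATTTA
CHD9: gtcactaaaatctaATTTAtatcaaATTTA
CHD6: ataactatttcattttgcattATTTATTTA
The longer nonamer TTATTTATT was in CHD6 and CHD7, which were not called, and in 7.71% of all genes. Thus the 3 higher members (CHD3, CHD4 and CHD1L) had 0, 0 and 1 ATTTA matches. The 3 lower ones (CHD9, CHD1 and CHD2) had 14, 10 and 4, and the 3 not called (CHD6, CHD7 and CHD8) had 11, 8 and 2. Per kb of the region, in the same order, the higher members had 0, 0 and 3.95 matches and the lower ones 5.37, 4.18 and 1.21. Those not called had 4.41, 3.82 and 4.82 per kb, and the median over all genes was 1.47. By this measure CHD1L, which was higher, exceeded CHD2, which was lower. The part of these letters in the levels was not tested.

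The other NuRD subunits were mostly higher, as their motors were. Of 12 tested NuRD genes, 8 were past the threshold, each with a higher level after AICAR, and 4 were not past it; the list's median log2 fold change was 0.17, against -0.0022 over all genes tested. Over all genes tested 39.1% were past the threshold, 19.4% higher and 19.7% lower, which is the background for this and the following lists. Of the 11444 tested protein-coding genes, 43.1% were past it. Where only genes of at least 10 CPM on average were fitted, 4378 of 8225 were past it. MBD3, the subunit that bridges the deacetylase and remodelling modules, had 123 ± 3.47 CPM with AICAR and 95.9 ± 3.70 CPM with vehicle (SD, n = 2 each; log2 fold change 0.36 ± 0.0422 SE). MTA1, a scaffold subunit, rose by 0.31 ± 0.0475 SE on the log2 scale. The deacetylases HDAC1 and HDAC2 rose by 0.15 ± 0.0368 SE and 0.17 ± 0.0421 SE. The FPKM of HDAC2 overlapped between the groups, and limma called neither deacetylase on log2(FPKM + 1). With libraries scaled by total counts alone, 4 NuRD genes were past the threshold, all higher, and on log2(FPKM + 1) 1 was. On that scale the called genes of the following lists were also fewer, at 3 CHD partners, 3 SWI/SNF genes, 5 of the INO80, SRCAP and EP400 group, 1 other SNF2 ATPase and no ISWI gene (limma; 1 ISWI gene at an unadjusted p under 0.05).

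Other proteins that bind CHD enzymes were mixed, with 4 of 10 higher, 2 lower and 4 not past the threshold (median 0.03). PARP1, whose product poly(ADP-ribose) recruits CHD1L, had 739 ± 6.16 CPM with AICAR and 578 ± 24.2 CPM with vehicle (log2 fold change 0.36 ± 0.0412 SE). SSRP1, a subunit of the histone chaperone FACT that works with CHD1, rose by 0.29 ± 0.0389 SE. ADNP, which forms the ChAHP complex with CHD4, had 37.7 ± 0.662 CPM with AICAR and 48.4 ± 1.15 CPM with vehicle (-0.36 ± 0.0481 SE). PARP2 was barely past the threshold (-0.15 ± 0.0533 SE), and was past it under 3 of 14 alternatives and under none that left out a library.

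Among remodellers of other families, SWI/SNF had 9 of 25 tested genes higher, 3 lower and 13 not past the threshold (median 0.08), or 5 higher and 3 lower with total counts alone. Its main motor SMARCA4 had 215 ± 3.50 CPM with AICAR and 163 ± 7.73 CPM with vehicle (log2 fold change 0.39 ± 0.0424 SE), and the core subunit SMARCC2 rose by 0.32 ± 0.0623 SE. The subunits ARID2 (-0.33 ± 0.0529 SE) and SS18 (-0.24 ± 0.0574 SE) fell. SS18 was not past the threshold with DESeq2 or with no low-count filter. On log2(FPKM + 1), limma called SMARCA4 but not SMARCC2 (difference 0.08), ARID2 or SS18.

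ISWI genes split 4 higher, 2 lower and 4 not past the threshold of 10 tested (median 0.13), or 2 higher and 2 lower with total counts alone. BAZ2A and BAZ1B, regulatory partners of the ISWI motor, had log2 fold changes of 0.29 ± 0.0665 SE and 0.21 ± 0.0371 SE, while BAZ2B and RSF1 had -0.35 ± 0.120 SE and -0.18 ± 0.0647 SE. The lower calls were not stable: neither BAZ2B nor RSF1 was past the threshold with DESeq2, with no low-count filter or without AICAR replicate 2. BAZ2B was also lost without vehicle replicate 1, and RSF1 without vehicle replicate 2. The FPKM of BAZ2B overlapped, with 2.45 and 1.91 in AICAR libraries against 1.66 and 2.19 in vehicle libraries. On the log2(FPKM + 1) scale its difference had the opposite sign (0.12) and was not called. Of the higher genes, BAZ2A was also not past the threshold with DESeq2. The FPKM of BAZ2A overlapped too, with 4.07 and 5.61 in AICAR libraries against 3.76 and 4.87 in vehicle libraries. BAZ1B was past the threshold under 13 of 14 alternatives, all but log2(FPKM + 1). Without AICAR replicate 2, 3 ISWI genes were past the threshold, against 6 with all libraries.

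The INO80, SRCAP and EP400 group split 9 higher, 7 lower and 16 not past the threshold of 32 tested (median -0.0028), or 3 higher and 7 lower with total counts alone. EP400, the motor of the TIP60 complex, had 15.5 ± 0.113 CPM with AICAR and 10.8 ± 0.941 CPM with vehicle (log2 fold change 0.52 ± 0.0832 SE), and its partner TRRAP rose by 0.38 ± 0.0526 SE. EPC1, an enhancer of polycomb subunit of the same complex, fell to 11.2 ± 0.817 CPM with AICAR, against 23.9 ± 1.495 CPM with vehicle (SD, n = 2 each), 2.13-fold lower. Its paralogue EPC2 fell by 0.47 ± 0.0638 SE on the log2 scale.

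Other ATPases with the SNF2 motor, which work mainly in DNA repair and chromosome segregation, had 1 of 15 higher, 5 lower and 9 not past the threshold (median -0.10), or 6 past it, each lower, with total counts alone. RAD54L2 was the higher gene (0.24 ± 0.0559 SE). ERCC6L, which acts on DNA bridges in mitosis, and RAD54B, a recombination protein, had -0.48 ± 0.0532 SE and -0.39 ± 0.116 SE. RAD54B was not past the threshold without vehicle replicate 2, with no low-count filter, with DESeq2 or in FPKM. The transcripts of the 5 lower genes had 36.0% to 40.9% GC, and that of RAD54L2 had 50.6%. With the trend on GC content and length subtracted, the lower genes stood at -0.34 (ERCC6L), -0.22 (RAD54B), -0.06 (BTAF1), -0.02 (SMARCAD1) and 0.0088 (ERCC6L2). RAD54L2 stood at 0.14, and the part of GC content and length in this list was not tested.

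**Figure D5:**
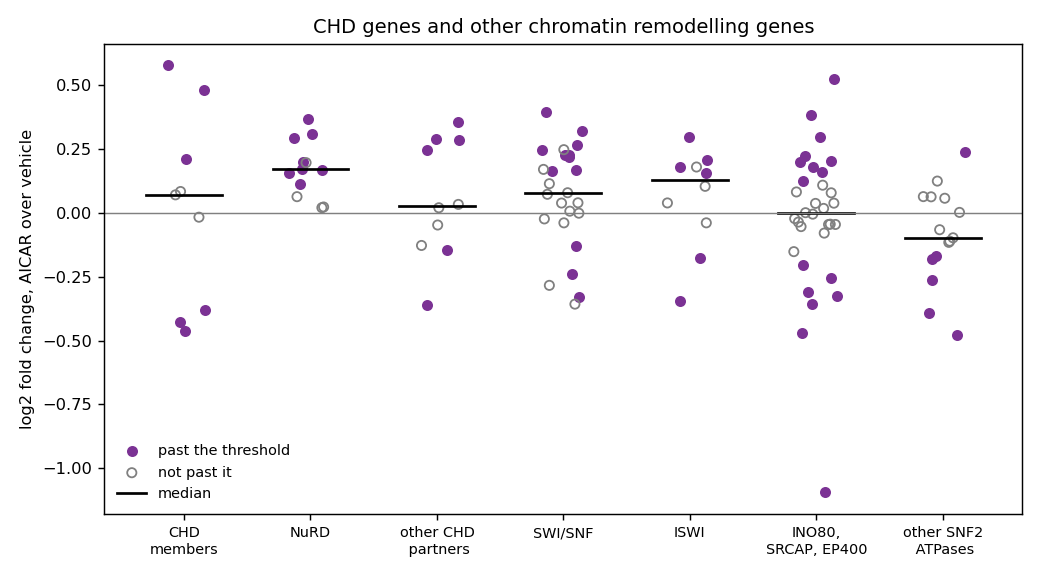
Log2 fold change (AICAR over vehicle) of each tested gene in the CHD family and 6 lists of other chromatin remodelling genes; filled points are past the edgeR threshold, open points are not, and bars are medians. The 8 NuRD genes past the threshold all lie above 0, while the CHD members run from -0.46 to 0.58.

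Likeness to the highest and the lowest member was measured as the Euclidean distance of log2 CPM, centred per gene, over the 4 libraries among 7953 protein-coding genes of at least 10 CPM on average. Among the genes closest to CHD3 were FLNA (distance 0.024) and SPTAN1 (0.066), against a median distance of 0.56 over all genes compared. Closest to CHD1 were LRRC8D (0.018), RNF111 (0.024) and POC5 (0.025), against a median of 0.52. FLNA had 255 and 254 CPM in AICAR libraries, against 181 and 164 CPM in vehicle libraries. LRRC8D had 38.4 and 36.3 CPM in AICAR libraries, against 52.4 and 50.5 CPM in vehicle libraries. These genes were picked as the nearest on the same libraries, so their small distances and like group differences were fixed by that choice.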

How the data were processed

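RNA-seq of NALM6 cells comprised 4 libraries, 2 AICAR and 2 vehicle, grouped by the labels. Per the labels' protocols, cells were extracted with RNeasy Plus, a stranded kit for total RNA was used, and single reads of 75 bases were obtained. Per the submitters' processing notes, the tools were RSEM 1.2.31, STAR 2.5.3a, Trimmomatic 0.32 and DESeq2, on hg19. Annotation and strand setting are not given in the sources used here. In the single table, the deposited expected counts are RSEM-type estimates without normalization. The deposited FPKM are corrected for depth and length. The log2 fold changes and q-values are the authors' own comparison.

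Expected counts were rounded, filtered with filterByExpr (minimum count 10, minimum total 15), scaled with TMM and tested two-sided with the quasi-likelihood method of edgeR 4.0.16 in R 4.3.3. P-values were adjusted by Benjamini-Hochberg for 13626 genes, and the threshold was 0.05. Implied length was tested with limma 3.58.1 and log2(FPKM + 1) served as an alternative. Alternatives were other scalings and filters, DESeq2 1.42.0, limma-voom, protein-coding genes alone, a replicate block, and each library left out. Scripts were tested on simulated data. Transcript length, GC content and untranslated regions came from GENCODE 29, matched for 96.9% of tested coding genes, and promoter windows from RefSeq. These are on GRCh38 while the files use hg19, so no coordinates but those of the promoter windows are printed.

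Members, lists and tests were chosen with earlier results of these data known; the motif searches and the trend on GC content and length were chosen after seeing the data. Named genes were the members and, in each list, the 2 highest and 2 lowest past the threshold. HDAC1, HDAC2, BTAF1, SMARCAD1 and ERCC6L2 were added after their values were seen. PCR copies were not marked. SDs are the spread between libraries, and SEs come from the edgeR or limma fits, which pool information on spread over genes. Of the markers and of the genes most like CHD3, 1 each is not reported here.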

Additional observations from a re-analysis of the deposited data

How the results depend on the processing

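The 6 called CHD members kept their call and direction under every count-based alternative, leave-one-out included (6 called at the lowest and the highest). On log2(FPKM + 1) 4 members were called, CHD2 and CHD1L being lost. Of 135 member values under alternatives, 125 stayed, 6 moved (all under the trend on GC content and length), 2 were weaker and 2 reversed. The reversals were of CHD8, with a log2 fold change of 0.024 without vehicle replicate 1 and 0.013 without AICAR replicate 2 (-0.071 without vehicle replicate 2 was the lowest of its 4 values with a library left out); it was not called in any setting.

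With log2(FPKM + 1), called genes numbered 1 for NuRD (8 in the reported fit), 3 for other CHD partners (6), 3 for SWI/SNF (12), 0 for ISWI (6; 1 at an unadjusted p under 0.05 by limma), 5 for INO80, SRCAP and EP400 (16) and 1 for other SNF2 ATPases (6). With total counts alone they were 4 for NuRD, 4 for ISWI, 8 for SWI/SNF and 10 for INO80, SRCAP and EP400. ISWI had 2 with DESeq2 and 3 with no low-count filter; other SNF2 ATPases had 3 with DESeq2 and 4 with no low-count filter. SWI/SNF had 8 with DESeq2 and with no low-count filter, and INO80, SRCAP and EP400 had 11 with each. Leaving out each library in turn gave 6 to 8 for NuRD, 5 to 6 for other CHD partners, 9 to 12 for SWI/SNF, 3 to 5 for ISWI, 12 to 14 for INO80, SRCAP and EP400, 5 to 7 for other SNF2 ATPases and 0 to 0 for implied length. Over all genes, 5328 were called, against 3267 with DESeq2 and 1892 with log2(FPKM + 1), and 4525 (1390 higher, 3135 lower) with total counts alone, where the median shifted by -0.060. The cause was not tested.

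The deviations of AICAR 1 and vehicle 1 from their group means had a correlation of -0.050 across genes. With 2 libraries per group, the deviations of the replicates numbered 2 mirror these. This value alone cannot tell whether same-numbered replicates were paired. With the replicate block 6 CHD members and 5429 genes in all were called.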

Other observations

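Small RNA genes lie in introns of some CHD genes. SCARNA21, a Cajal body RNA that guides modification of spliceosomal RNAs and lies in an intron of CHD3 on the same strand, had 8.24 and 6.79 CPM in AICAR libraries, against 4.42 and 5.44 CPM in vehicle libraries. The groups did not overlap, and the log2 fold change was 0.61 ± 0.141 SE (adjusted p = 0.00539 by edgeR's quasi-likelihood test), beside 0.58 for CHD3. The gene overlaps no CHD3 exon in GENCODE 29, and whether its reads came from the mature small RNA or from unspliced CHD3 RNA was not tested. SCARNA11, in CHD4, held 0 and 1 counts with AICAR and 1 and 7 with vehicle, too few for a comparison, and SNORD8 and SNORD9, in CHD8, were also under the filter on low counts.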
